A study of Mus musculus with 20 samples.

Results

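The antimicrobial and secretory proteins of the uterine lining are described here through 10 genes, Ltf, Lcn2, S100a8, S100a9, Slpi, Wfdc2, Pglyrp1, Pigr, Lyz2 and Chil1. They were taken by gene symbol from the 45777 genes of the expression table, and all 10 were found. RNA of whole uterine tissue was sequenced from 20 wild-type B6D2F1 females aged 8 to 12 weeks, killed at 18:00 on day 3.5 of pregnancy, with 5 mice in each of 4 groups. The control group was pregnant and received no treatment. The IF group (implantation failure) received the progesterone and glucocorticoid receptor antagonist RU486 under the skin on the morning of day 3.5. The PBMC and PBMC-hCG groups received the same RU486 and, on day 1.5, peripheral blood mononuclear cells placed in the uterus, which had been cultured without human chorionic gonadotropin (hCG) for the PBMC group and with it for the PBMC-hCG group. The blood cells came from other, non-pregnant females. Neither the control nor the IF group had an intrauterine injection, so the cells and the procedure cannot be told apart here, and a group given culture medium was not analysed here. Values are TPM, a transcript abundance scaled for gene length and for the total of each library.

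The epithelium of the uterus and its glands secretes proteins that hold back microbes in the lumen, and estrogen is known to raise several of them, an action that progesterone opposes for lactoferrin. Ltf (lactoferrin) binds iron and is a classic estrogen-induced secretion of the mouse uterus, and Lcn2 (lipocalin 2) withholds iron by capturing bacterial siderophores. S100a8 and S100a9 encode the chains of calprotectin, which chelates zinc and manganese and is best known from neutrophils. Slpi and Wfdc2 carry WAP domains, and Slpi inhibits neutrophil elastase and cathepsin G. Pglyrp1 binds bacterial peptidoglycan and Lyz2, the lysozyme of macrophages, cuts it. Pigr carries polymeric IgA across epithelium into secretions. Chil1 is a chitinase-like lectin without enzyme activity.

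The stretches just upstream of the start sites are shown first for the genes whose RNA moved with a group (Lcn2, S100a8, S100a9, Slpi) and for Ltf and Pigr, which hold the TGACC unit of the estrogen response element. The sequences are from RefSeq (GRCm38.p6, the mm10 build to which the reads were mapped), run 5′ to 3′ on the strand of the gene and cover the 250 bases before the start site, so none is part of a transcript. Capitals mark a TTGCNNAA site, the type bound by C/EBP factors, or a TGACC unit, read on either strand.
Ltf, chr9:111019042-111019291, plus strand: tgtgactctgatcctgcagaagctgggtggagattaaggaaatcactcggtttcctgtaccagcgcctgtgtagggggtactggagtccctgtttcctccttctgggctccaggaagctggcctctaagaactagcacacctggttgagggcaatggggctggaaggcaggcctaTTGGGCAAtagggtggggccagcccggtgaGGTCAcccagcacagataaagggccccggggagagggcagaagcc
Lcn2, chr2:32387740-32387989, minus strand: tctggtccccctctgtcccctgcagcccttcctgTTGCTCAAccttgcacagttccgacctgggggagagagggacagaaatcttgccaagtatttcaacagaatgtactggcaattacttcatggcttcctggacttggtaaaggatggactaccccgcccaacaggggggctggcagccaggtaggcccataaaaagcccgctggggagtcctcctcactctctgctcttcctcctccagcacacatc
S100a8, chr3:90668821-90669070, plus strand: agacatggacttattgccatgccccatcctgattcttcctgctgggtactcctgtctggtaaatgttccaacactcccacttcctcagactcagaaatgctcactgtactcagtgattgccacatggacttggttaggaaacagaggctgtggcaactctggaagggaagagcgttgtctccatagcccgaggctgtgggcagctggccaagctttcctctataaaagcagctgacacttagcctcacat
S100a9, chr3:90695722-90695971, minus strand: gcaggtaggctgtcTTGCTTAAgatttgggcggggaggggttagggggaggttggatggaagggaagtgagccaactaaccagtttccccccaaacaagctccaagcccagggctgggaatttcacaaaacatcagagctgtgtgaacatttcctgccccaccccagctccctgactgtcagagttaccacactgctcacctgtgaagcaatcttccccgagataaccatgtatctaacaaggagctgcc
Slpi, chr2:164356508-164356757, minus strand: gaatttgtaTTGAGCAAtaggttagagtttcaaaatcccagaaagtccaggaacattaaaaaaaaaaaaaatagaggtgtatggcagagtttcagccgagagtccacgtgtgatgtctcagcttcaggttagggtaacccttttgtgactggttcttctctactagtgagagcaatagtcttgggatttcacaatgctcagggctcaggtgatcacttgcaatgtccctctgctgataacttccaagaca
Pigr, chr1:130826434-130826683, plus strand: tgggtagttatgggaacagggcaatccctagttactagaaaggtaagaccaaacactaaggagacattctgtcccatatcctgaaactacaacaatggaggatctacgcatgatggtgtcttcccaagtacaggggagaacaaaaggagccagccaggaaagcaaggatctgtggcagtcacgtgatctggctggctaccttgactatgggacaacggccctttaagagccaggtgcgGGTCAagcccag
In these windows TTGCNNAA occurred in 4 of the 10 genes (Ltf, Lcn2, S100a9 and Slpi) and in 9.55% of the 27025 genes' windows of that length. TGACC occurred in Ltf, at 45 to 41 bases before the start site, and in Pigr, at 12 to 8 bases before it, and in 34.9% of all windows. The full palindrome GGTCANNNTGACC, which contains TGACC, was found in none of the 10 and in 0.0629% of all windows. The AP-1 site TGANTCA was also found in none, against 6.87% of all windows, and GGGNNTTTCC, an NF-kB-like site, in Pglyrp1, against 1.399%. These are matches of letters, and no binding was measured. Only the first listed window of each gene was read, and 2 are listed for Wfdc2.

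All 10 are protein-coding genes. Ltf lies on chromosome 9 (111019292 to 111042766, plus strand) and Lcn2 on chromosome 2 (32384637 to 32387739, minus strand). S100a8 (chromosome 3, 90669071 to 90670034, plus strand) and S100a9 (90692630 to 90695721, minus strand) are neighbours 22.6 kb apart on opposite strands. Slpi (chromosome 2, 164354070 to 164356507, minus strand) and Wfdc2 (164562715 to 164568510, plus strand) lie 206 kb apart. Pglyrp1 is on chromosome 7 (18884690 to 18890438), Lyz2 on chromosome 10 (117277541 to 117282272), and Pigr (130826684 to 130852249) and Chil1 (134182156 to 134190031) are on chromosome 1.

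The libraries summed to between 999988 and 999999 TPM, so the number of reads behind a value is unknown and no counting interval is given. The labelled tissue was borne out by its markers, with Esr1 at 98.0 to 166 TPM and Hoxa10 at 96.4 to 281 TPM in every library. Control replicate 2 stood apart, with stroma markers summing to 6923 TPM against 11340 TPM or more in every other library and gland markers to 26590 TPM. In RNA of a whole tissue, fewer cells of a type and less RNA per cell cannot be told apart. Groups were compared with limma on log2(TPM + 0.1) over the 18706 genes above 0 TPM in all 20 libraries, and a gene was called at a Benjamini-Hochberg adjusted p-value under 0.05 over all of them. All 10 genes were above 0 in every library and were therefore tested. The 6 comparisons share groups and are not independent of each other.

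The 10 genes spanned a wide range of levels. Over the 20 mice Lyz2 averaged 563 TPM and Wfdc2 433 TPM, above 98.9% and 98.6% of tested genes. Pigr (72.7 TPM), Lcn2 (49.8 TPM), Pglyrp1 (45.3 TPM) and Ltf (34.5 TPM) followed. Slpi (11.6 TPM), S100a9 (6.14 TPM), Chil1 (4.98 TPM) and S100a8 (3.995 TPM) were the lowest, S100a8 lying above 30.5% of tested genes. Over the 20 mice the ranges of neighbours in this order overlapped, as for Lyz2 (451 to 757 TPM) and Wfdc2 (300 to 1349 TPM), except that every Pigr value (192 TPM or less) lay below every Wfdc2 value.

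**Figure D1:**
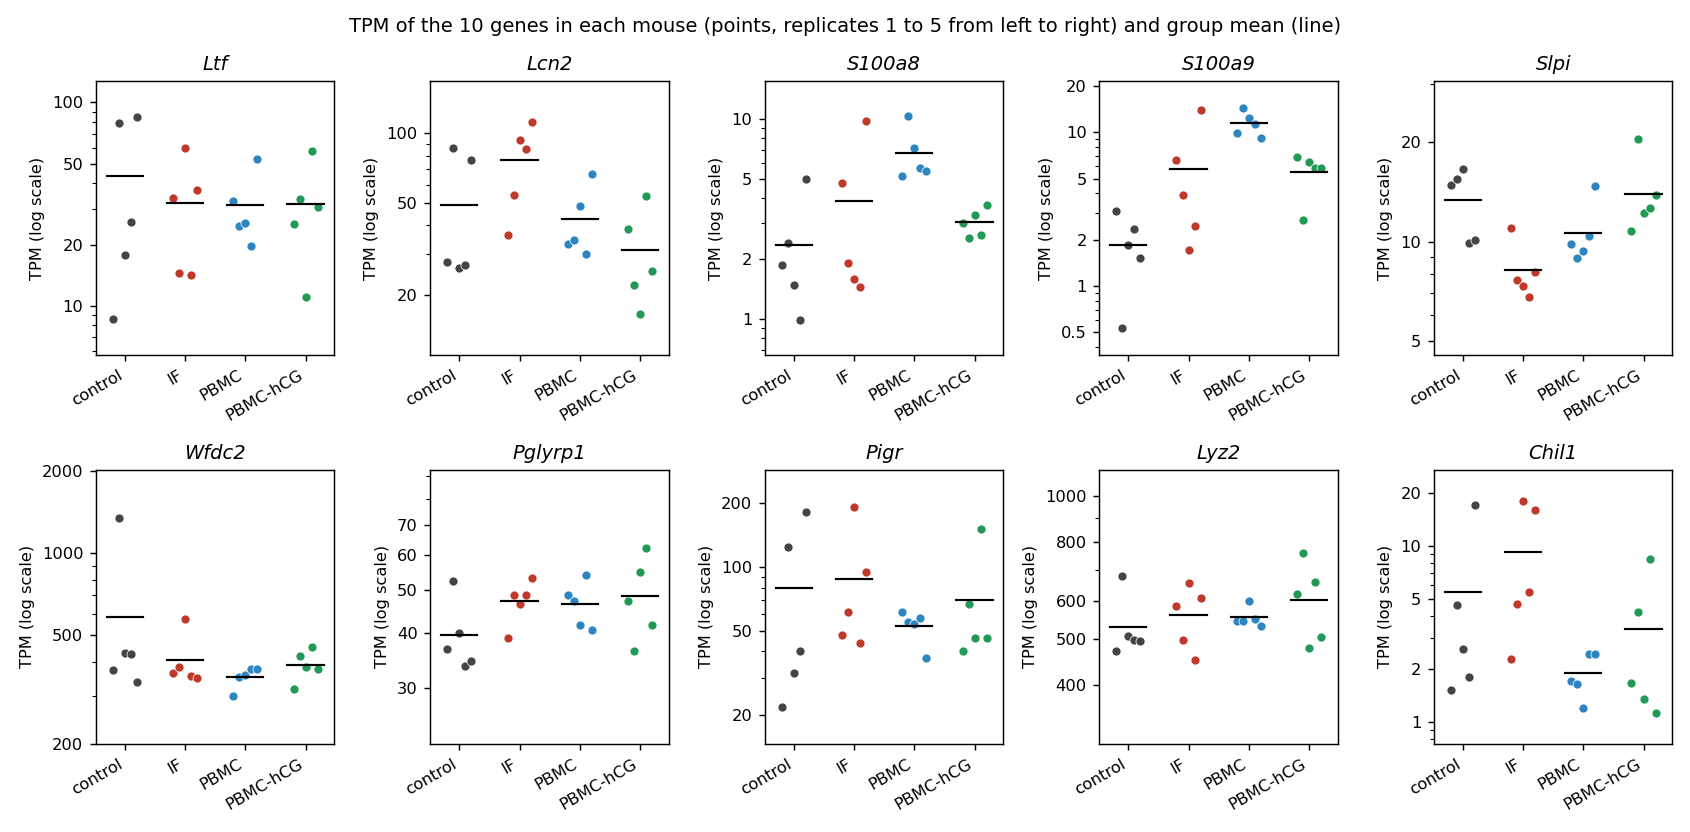
TPM on log axes for each of the 10 genes, with a point for each mouse, groups along the horizontal axis and a line at the group mean. S100a8 and S100a9 lie higher in all 5 PBMC mice than in any control mouse, Slpi is lowest in IF, and Ltf, Pigr and Chil1 scatter widely within groups.

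The largest called difference among the 10 genes was that of S100a9 between PBMC and control mice, and S100a8 rose beside it in that comparison. S100a9 was 0.530 to 3.05 TPM in control mice, with 3.05, 0.530, 1.84, 2.33 and 1.52 TPM in replicates 1 to 5. It was 6.58, 3.91, 1.72, 2.46 and 14.1 TPM in the IF group, 9.85, 14.4, 12.5, 11.3 and 9.16 TPM in the PBMC group and 6.87, 2.67, 6.38, 5.87 and 5.83 TPM in the PBMC-hCG group. Every PBMC mouse was thus above every control mouse and above every PBMC-hCG mouse, while IF mice overlapped with all other groups. Group means were 1.85 ± 0.939, 5.75 ± 5.01, 11.4 ± 2.10 and 5.53 ± 1.65 TPM (SD, n = 5) in this order.

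S100a9 was higher than in control mice in all 3 groups given RU486. The log2 difference was 2.73 in the PBMC group (95% interval 1.75 to 3.70, limma adjusted p = 0.000408), 1.64 in the PBMC-hCG group (0.66 to 2.62, adjusted p = 0.0122) and 1.37 in the IF group (0.40 to 2.35, adjusted p = 0.0413). The first and second calls held when any of the 20 mice was left out. The call in the IF group held in 14 of 20 such fits and was lost without control replicate 2, 3 or 5 or IF replicate 1, 2 or 5, with adjusted p up to 0.123 and a log2 difference of 0.96 without IF replicate 5. Control replicate 2, the library that stands apart, had the lowest of the 20 values, and without it the log2 differences from control were 2.36 in PBMC, 1.28 in PBMC-hCG and 1.01 in IF mice.

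S100a8 was 1.86, 2.38, 1.48, 0.987 and 5.01 TPM in replicates 1 to 5 of control and 4.76, 1.91, 1.58, 1.45 and 9.68 TPM in those of the IF group. It was 5.14, 10.3, 7.09, 5.69 and 5.47 TPM in the PBMC mice and 3.005, 2.54, 3.29, 2.62 and 3.72 TPM in the PBMC-hCG mice. Again all PBMC values lay above all control values, narrowly (5.14 against 5.01 TPM), and above all PBMC-hCG values, and 4 of 5 IF mice lay in the range of the control mice. The PBMC group was higher than control by 1.64 on the log2 scale (0.72 to 2.57, adjusted p = 0.0129), a call that held without any 1 of the 20 mice. IF and PBMC-hCG mice differed from control by 0.51 (-0.42 to 1.44, adjusted p = 0.458) and 0.55 (-0.38 to 1.48, adjusted p = 0.364), which did not pass. The latter was called, at 0.93 (adjusted p = 0.0319), when libraries were weighted by their quality (array weights). That fit called 9554 of all 18706 genes between PBMC-hCG and control, against 5941 without the weights.

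Between the treated groups neither calprotectin gene passed adjustment. PBMC mice exceeded IF mice by 1.13 for S100a8 (0.21 to 2.06, adjusted p = 0.701) and 1.35 for S100a9 (0.37 to 2.33, adjusted p = 0.667) on the log2 scale. PBMC-hCG mice were lower than PBMC mice by the same amount for both, -1.09 (-2.02 to -0.16, adjusted p = 0.284) for S100a8 and -1.09 (-2.06 to -0.11, adjusted p = 0.289) for S100a9. The mice of these last groups did not overlap for either gene, as was the case for 3.46% of all tested genes.

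**Figure D2:**
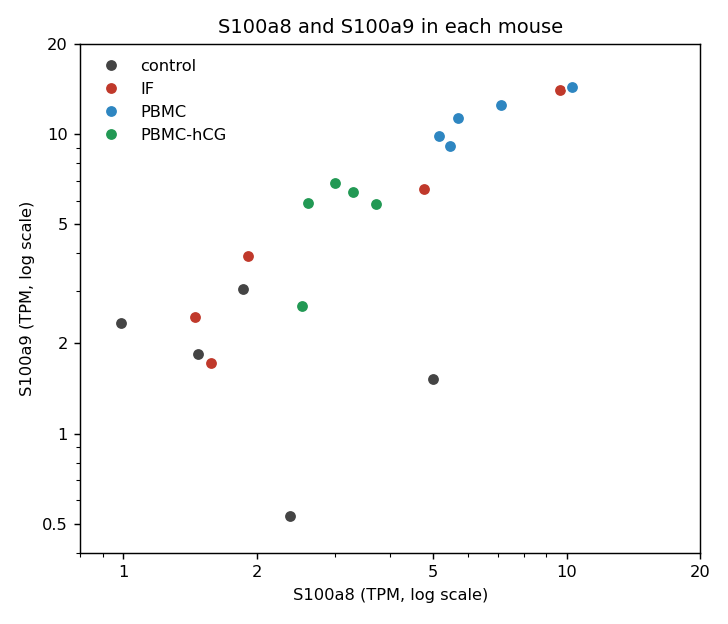
S100a8 against S100a9 in TPM, both on log axes, with a point for each mouse coloured by group. The 5 PBMC mice lie at the upper right together with IF replicate 5, and the PBMC-hCG mice lie between them and most control mice.

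Over the 20 mice the log2 levels of S100a8 and S100a9 had a correlation of 0.729, which was 0.499 once each group was centred on its mean and 0.332 without the 2 mice farthest from the median of S100a8. Markers of neutrophils, the cells best known for calprotectin, were mixed. Of 24 in the table, 11 were above 0 in every library, with group means of 121 to 168 TPM for Retnlg, 15.9 to 20.1 TPM for Itgam, which other myeloid cells also express, and 3.83 to 4.67 TPM for Csf3r. Among the others, Stfa1, Stfa2, Stfa3 and Stfa2l1 were at 0 in every library, and Ngp, Camp, Elane and Mmp8 were at 0 in 13 to 17 of the 20 libraries and never above 0.218 TPM. Ly6g averaged 0.178 TPM in control mice, 0.399 in IF, 0.570 in PBMC and 1.01 in PBMC-hCG mice, and Cxcr2 0.0741, 0.357, 0.485 and 0.284 TPM. The summed level of the list was mostly Retnlg and overlapped between groups, at 118 to 224 TPM in control, 156 to 279 in IF, 186 to 309 in PBMC and 113 to 419 TPM in PBMC-hCG mice. Centred on group means, this sum had a correlation of 0.042 with S100a9 and -0.282 with S100a8. The 11 tested markers gave 1 call in the PBMC group against control, Mmp9, at 0.70 (adjusted p = 0.0289). Il1r2 averaged 7.242 TPM in control, 13.48 in IF, 12.63 in PBMC and 4.791 in PBMC-hCG mice. Clec4d averaged 1.073, 1.996, 2.206 and 1.01 TPM. Il1r2 was called between PBMC-hCG and IF, at -1.778 (adjusted p = 0.03468). Between PBMC-hCG and PBMC the differences, -1.68 and -1.006, did not pass (adjusted p = 0.2655 and 0.2712). Csf3r, Mmp9, Prtn3 and Mxd1 were not lower there. The relation of Il1r2 and Clec4d to S100a8 and S100a9 was not tested. Macrophage markers summed to 1089 to 1389 TPM in control and 1401 to 1499 TPM in PBMC mice. These sums did not overlap. Among all tested genes 12.7% did not overlap, but that share is of single genes and is no measure for a sum of 20 markers. Of the 20 macrophage markers, all tested, 2 rose and 1 fell in PBMC against control, where 19.5% of all tested genes were called. Their median log2 difference was 0.125, beside 0.048 over all genes, and Lgmn rose most, by 0.52 (adjusted p = 0.00557). Centred on group means, the macrophage sum had a correlation of 0.479 with S100a9 (0.649 without the 2 mice farthest from the median) and 0.041 with S100a8. The part of blood-derived cells in the calprotectin values was not tested.

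Slpi, the elastase inhibitor, was lower in IF than in control mice and higher in PBMC-hCG than in IF mice. Control mice had 14.8, 15.4, 16.6, 9.92 and 10.2 TPM, and IF mice 11.03, 7.68, 7.34, 6.80 and 8.09 TPM. PBMC mice had 9.87, 8.93, 9.36, 10.4 and 14.7 TPM, and PBMC-hCG mice 10.8, 20.4, 12.2, 12.6 and 13.8 TPM. In each of these pairs of groups the overlap came from IF replicate 1, at 11.03 TPM, since the 4 other IF mice lay below all control and all PBMC-hCG mice. Group means were 13.4 ± 3.13 TPM in control, 8.19 ± 1.66 in IF, 10.7 ± 2.33 in PBMC and 13.97 ± 3.78 TPM in PBMC-hCG mice (SD, n = 5).

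The difference of Slpi between IF and control was -0.69 on the log2 scale (-1.09 to -0.29, adjusted p = 0.0135) and held without any 1 mouse, with adjusted p up to 0.0423. Between PBMC-hCG and IF it was 0.75 (0.35 to 1.15, adjusted p = 0.0292). That call held in 13 of 20 fits and was lost without IF replicate 2, 4 or 5 or PBMC-hCG replicate 2, 3, 4 or 5, with adjusted p from 0.0566 to 0.0989 and log2 differences from 0.60 to 0.79. PBMC mice lay between, 0.37 above IF (-0.02 to 0.77, adjusted p = 0.746) and 0.32 below control (log2 difference -0.32, -0.71 to 0.08, adjusted p = 0.269). PBMC-hCG mice differed from control by 0.06 (-0.34 to 0.46, adjusted p = 0.846).

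Wfdc2, the other WAP protein and the second most abundant of the 10, showed no called difference. It was 373, 1349, 430, 426 and 337 TPM in the untreated control mice, 363, 382, 576, 354 and 348 TPM in IF, 300, 352, 357, 376 and 377 TPM in PBMC and 317, 420, 384, 455 and 376 TPM in PBMC-hCG mice. All groups overlapped, and after control replicate 2 the next highest mouse was IF replicate 3, at 576 TPM. The difference between IF and control was -0.33 (-0.89 to 0.22, adjusted p = 0.412) and turned to 0.03 without control replicate 2.

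Lcn2, which captures siderophores, was lower in PBMC-hCG than in IF mice. IF mice had 36.5, 54.1, 93.4, 85.8 and 112 TPM and PBMC-hCG mice 38.8, 22.1, 16.5, 53.5 and 25.3 TPM. Control mice had 27.9, 86.1, 26.1, 27.1 and 76.7 TPM and PBMC mice 33.2, 34.8, 48.5, 30.01 and 66.8 TPM. The IF and PBMC-hCG ranges met between 36.5 and 53.5 TPM, and control mice fell into 3 low and 2 high values. The log2 difference between PBMC-hCG and IF was -1.30 (-2.14 to -0.47, adjusted p = 0.0417), from means of 31.3 ± 14.9 and 76.4 ± 30.6 TPM (SD, n = 5).

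This call of Lcn2 stood near its threshold. It held in 12 of 20 fits and was lost without IF replicate 2, 4 or 5, PBMC replicate 3 or PBMC-hCG replicate 2, 3, 4 or 5, with adjusted p from 0.0505 to 0.132 and the log2 difference between -1.53 and -1.105. PBMC mice were 0.79 below IF (log2 difference -0.79, -1.63 to 0.04, adjusted p = 0.746). IF mice were 0.75 above control (-0.09 to 1.59, adjusted p = 0.196). Neither passed, although the difference of IF from control was called with array weights, at 1.02 (adjusted p = 0.0213). Array weights called 6248 of all 18706 genes in that comparison, against 4104 without them. PBMC-hCG and PBMC mice differed by -0.51 (-1.34 to 0.33, adjusted p = 0.492).

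Ltf, the other iron-binding protein and the classic estrogen-induced one, showed no difference between groups that was larger than its spread between mice. It was 8.56, 79.5, 17.9, 25.9 and 85.0 TPM in the untreated control mice, 33.8, 14.4, 59.8, 14.2 and 37.0 TPM in IF, 32.9, 24.6, 25.6, 19.7 and 53.0 TPM in PBMC and 25.2, 33.5, 11.1, 57.9 and 30.6 TPM in PBMC-hCG mice. The lowest and the highest of the 20 values were both from control mice. Its 6 log2 differences lay between -0.16 and 0.10 with adjusted p of 0.877 or more, and the interval for IF against control, -1.36 to 1.04, still allows a difference of more than 2-fold either way.

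Pigr, the IgA transporter, also differed more within groups than between them. It was 21.9, 124, 31.4, 39.9 and 182 TPM in the untreated control mice, 47.8, 61.3, 192, 43.9 and 94.2 TPM in IF, 61.2, 55.0, 53.8, 57.2 and 37.2 TPM in PBMC and 40.2, 67.0, 46.4, 151 and 46.1 TPM in PBMC-hCG mice. PBMC mice were the most even, and each of the other groups had 1 or 2 mice near or above 100 TPM. The log2 difference between IF and control was 0.38 (-0.71 to 1.47, adjusted p = 0.660). The RNAs of its cargo, Igha and Jchain, fell in IF against control, by 2.56 and 2.70 on the log2 scale (adjusted p = 0.0341 and 0.0214), from means of 1072 ± 548 to 333 ± 425 TPM for Igha (SD, n = 5). In PBMC-hCG mice, against control, Jchain fell by 3.08 and Igha by 3.0 (adjusted p = 0.00717 and 0.0107). In PBMC mice the differences from control, -1.66 for Jchain and -1.51 for Igha, did not pass (adjusted p = 0.165 and 0.228).

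Chil1, the chitinase-like lectin, had the widest spread of the 10. It was 1.51, 4.59, 2.57, 1.79 and 16.9 TPM in the untreated control mice, 2.28, 4.63, 18.0, 5.41 and 15.9 TPM in IF, 1.70, 1.64, 1.19, 2.44 and 2.42 TPM in PBMC and 1.65, 4.22, 1.34, 8.36 and 1.12 TPM in PBMC-hCG mice. No PBMC mouse exceeded 2.44 TPM, and 4 of 5 IF mice were above that level. The log2 difference of PBMC from IF was -1.89 (-3.26 to -0.51, adjusted p = 0.667) and that of PBMC-hCG from IF -1.46 (-2.84 to -0.09, adjusted p = 0.122), neither of which passed adjustment.

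The proteins that act on the bacterial wall were the steadiest. Pglyrp1 ranged from 33.7 to 52.2 TPM in control mice (median 36.7), from 38.9 to 53.1 in IF (48.6), from 40.5 to 54.1 in PBMC (47.1) and from 36.4 to 62.1 TPM in PBMC-hCG mice (47.2). In control mice the 4 values other than replicate 2 were 39.95 TPM or less, and the log2 difference of IF from control, 0.27 (-0.02 to 0.56, adjusted p = 0.182), became 0.38 without that library (adjusted p = 0.0395). PBMC-hCG mice differed from control by 0.29 (-0.00 to 0.58, adjusted p = 0.120), and by 0.40 without control replicate 2 (adjusted p = 0.0220) and 0.39 without PBMC-hCG replicate 2 (adjusted p = 0.0427). Lyz2 ranged from 473 to 680 TPM in control (median 497), 451 to 655 in IF (588), 534 to 600 in PBMC (547) and 480 to 757 TPM in PBMC-hCG mice (621), and its 6 log2 differences were within 0.18 of 0, with adjusted p of 0.288 or more. Lyz1, a near-identical lysozyme gene, averaged 18.5 to 22.3 TPM, and reads of the pair may have been split between them.

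**Figure D3:**
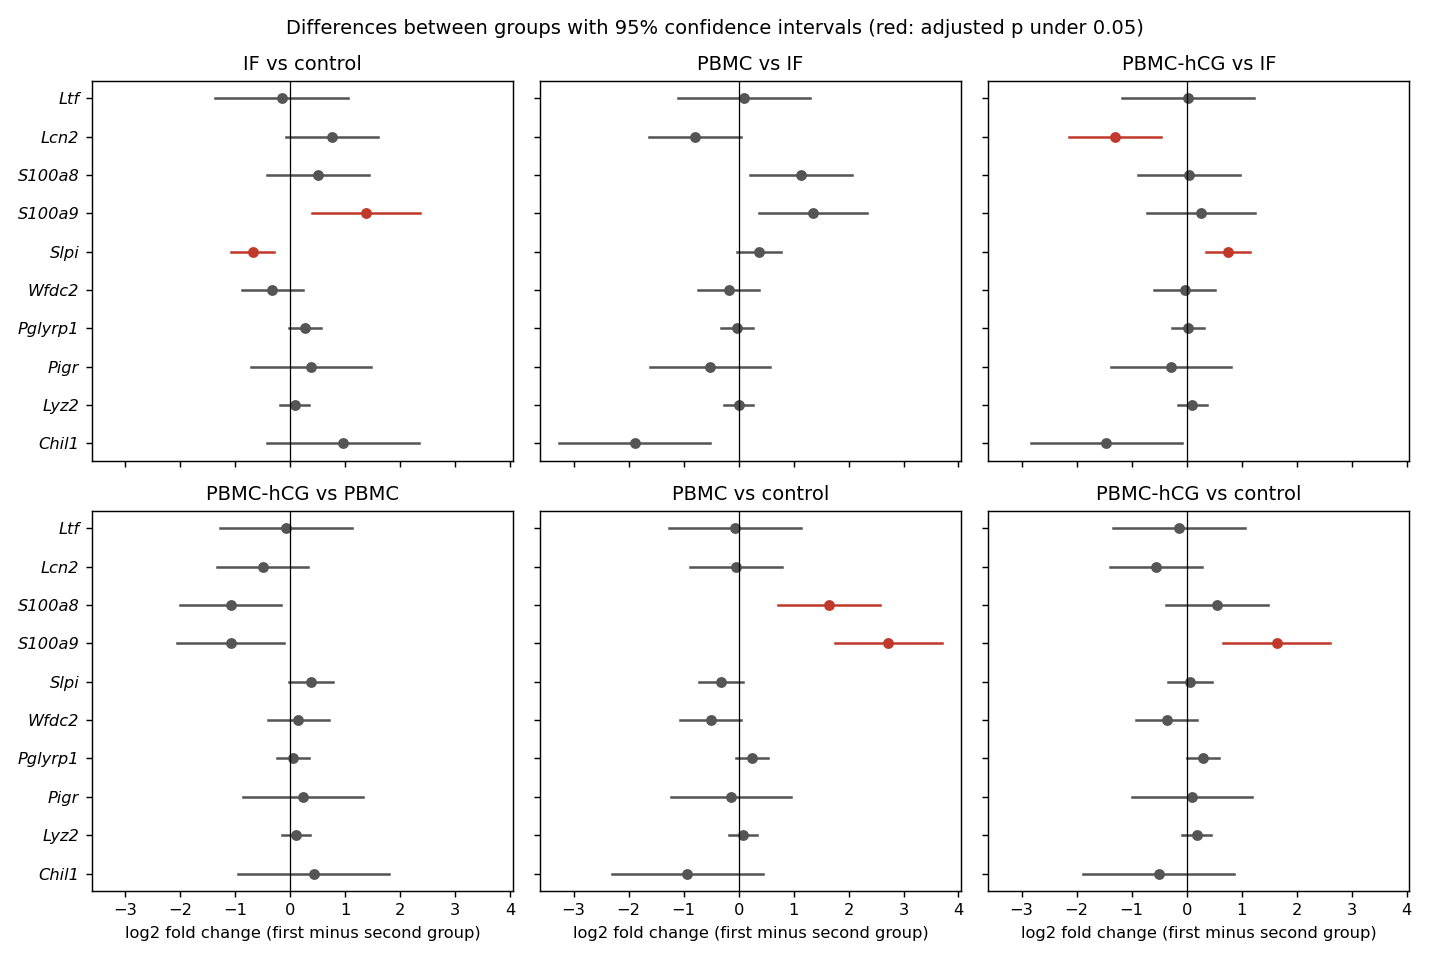
Log2 differences of the 10 genes in the 6 comparisons, first group minus second, with 95% confidence intervals from limma. Red marks an adjusted p under 0.05, reached by S100a9 and Slpi in IF against control, Lcn2 and Slpi in PBMC-hCG against IF, S100a8 and S100a9 in PBMC against control and S100a9 in PBMC-hCG against control.

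The 10 genes were called at rates near or below those of all tested genes in 3 of the 4 comparisons with many calls, and somewhat above in PBMC-hCG against IF. Between IF and control 2 of 10 were called, where 21.9% of all tested genes were. Between PBMC-hCG and IF 2 of 10 were called against 13.6%, between PBMC and control 2 against 19.5%, and between PBMC-hCG and control 1 against 31.8%. The 2544 genes called between PBMC-hCG and IF fell to 34 or fewer when IF replicate 2, 4 or 5 or PBMC-hCG replicate 2, 3, 4 or 5 was left out, the same 7 mice on which the call of Slpi turned. Between PBMC and IF limma called none of the 10 and 0% of all genes, while 3 of the 10 and 6.79% of all genes had a raw p-value under 0.05. Between PBMC-hCG and PBMC it called none of the 10 and 0.0107% of all genes, while 2 of the 10 and 16.2% of all genes had a raw p-value under 0.05.

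By the study's own criterion, a fold change of at least 2 with a raw p-value under 0.05, S100a9 passed between IF and control, where 4.03% of all genes did. Chil1, S100a8 and S100a9 passed between PBMC and IF, where 0.438% of all genes did. Lcn2 and Chil1 passed between PBMC-hCG and IF (2.31% of all genes), and S100a8 and S100a9 between PBMC-hCG and PBMC (0.893%) and between PBMC and control (3.34%). S100a9 passed between PBMC-hCG and control (4.74%). All these genes were among the more variable of the table, as given below.

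No gene of the 10 separated the mice of IF from those of control without overlap, as 12.8% of all genes did, nor those of PBMC from IF (1.01%), PBMC-hCG from IF (7.24%) or PBMC-hCG from control (18.3%). S100a8 and S100a9 separated PBMC from control, as did 12.7% of all genes. The median log2 difference of the 10 genes was 0.33 in IF against control, beside 0.02 over all tested genes, and 0.02 beside 0.05 in PBMC-hCG against IF.

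Within groups, 6 of the 10 genes varied more between mice than nearly all others. The pooled SD of log2 values within groups was 1.12 for Chil1, more than that of 99.4% of the 15771 genes with a mean of at least 1 TPM. It was 0.983 for Ltf (99.0%), 0.891 for Pigr (98.5%), 0.793 for S100a9 (97.7%), 0.749 for S100a8 (97.2%) and 0.683 for Lcn2 (96.1%). Wfdc2 (0.451, 88.0%), Slpi (0.315, 75.1%), Pglyrp1 (0.233, 59.3%) and Lyz2 (0.208, 53.1%) were closer to the middle of the table.

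The mice in which Ltf, Lcn2, Pigr and Chil1 were high were largely the same. With each group centred on its mean, log2 levels over the 20 mice had a Pearson r of 0.848 (Spearman 0.788) for Pigr and Chil1, 0.802 (0.683) for Ltf and Pigr, 0.715 (0.672) for Lcn2 and Chil1 and 0.71 (0.686) for Ltf and Lcn2. Without the 2 mice farthest from the median of the first gene of each pair, r was 0.759, 0.702, 0.696 and 0.663. Lyz2 followed some of these genes, with an r of 0.628 with Ltf and 0.54 with Pigr (0.741 and 0.641 without the 2 farthest mice). With Wfdc2 its r was 0.598, and 0.297 without such mice. Of the 45 pairs among the 10 genes, 9 had an r above 0.5 and 1 below -0.5, S100a9 with Wfdc2 at -0.642. All points of a pair come from the same libraries, and these values are descriptions.

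**Figure D4:**
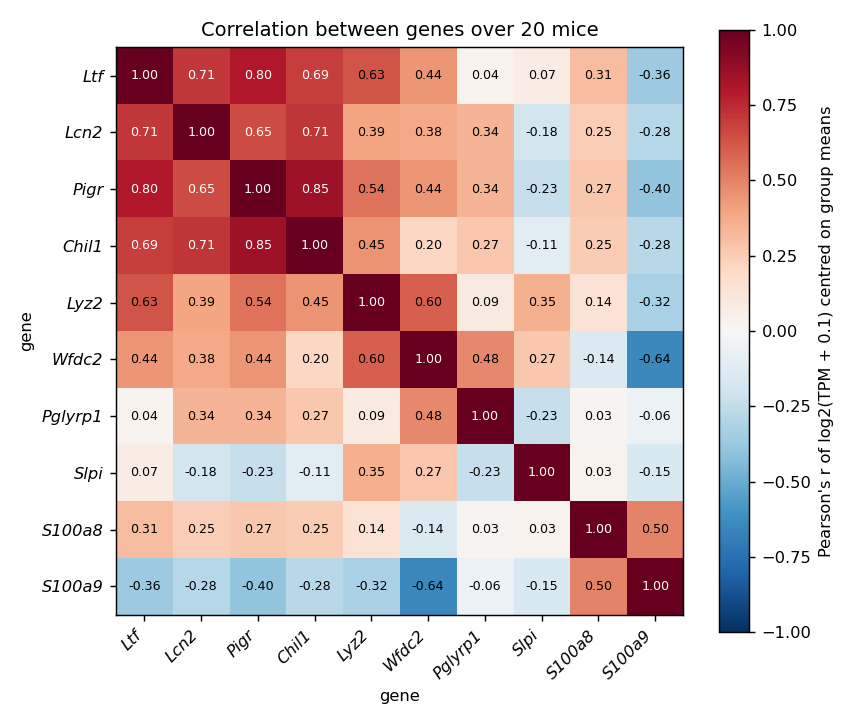
Pearson's r between the log2(TPM + 0.1) values of each pair of the 10 genes over 20 mice, centred on group means, from -1 (blue) to 1 (red). Ltf, Lcn2, Pigr and Chil1 form the block of high values at the upper left, and S100a9 has its lowest value, -0.64, with Wfdc2.

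These 4 genes were high in libraries where a few abundant gland transcripts were high. Cxcl15 was low there, Lif and Wfdc3 were low in the control and IF libraries among them, and the other less abundant gland markers were mixed. The summed level of 10 gland markers, most of it from Prss29, Spink1, Prss28 and Gpx3, was 6900 to 26590 TPM in 5 libraries (control replicates 2 and 5, IF replicates 3 and 5 and PBMC-hCG replicate 4) and 1872 to 4726 TPM in the other 15. Pigr was 94.2 to 192 TPM in those 5 libraries and 21.9 to 67.0 TPM in the other 15, with no overlap. Chil1 was 4.59 to 18.0 TPM against 1.12 to 5.41 TPM, Ltf 37.0 to 85.0 against 8.56 to 53.0 TPM, and Lcn2 53.5 to 112 against 16.5 to 85.8 TPM. Centred on group means, r with the gland sum was 0.854 for Pigr, 0.744 for Lcn2, 0.743 for Ltf and 0.666 for Chil1, and it was 0.732 for Wfdc2, which dropped to 0.255 without the 2 farthest mice. For Lyz2 it was 0.602, and 0.341 without these mice. Cxcl15, a gland marker of the same list, was lower in these 5 libraries than in every other mouse of their groups, at 0.394 and 2.35 TPM against 15.4 to 19.9 TPM in control, 2.33 and 3.43 against 10.6 to 16.6 TPM in IF and 5.08 against 8.21 to 17.3 TPM in PBMC-hCG mice. Lif was 0.976 and 3.08 TPM in control replicates 2 and 5 against 13.8 to 22.2 TPM in the other control mice, and Wfdc3 9.06 and 10.2 against 15.8 to 28.6 TPM. In IF replicates 3 and 5 Lif was 2.30 and 4.72 TPM against 4.91 to 6.94 TPM in the other IF mice. Wfdc3 was 7.42 and 7.44 TPM there, against 11.21 to 16.35 TPM. Foxa2, a defining gland factor, was not high in the control mice with high sums, at 9.03 and 8.72 TPM in replicates 2 and 5 against 12.4 to 15.4 TPM in the other 3. In IF replicates 3 and 5 Foxa2 was 6.45 and 6.10 TPM, among the other IF mice (4.87 to 7.01 TPM). Lif and Wfdc3 in PBMC-hCG replicate 4, at 1.86 and 9.47 TPM, also lay among those of their group. Ttr was 1.55 TPM in control replicate 2 but 14.3 TPM in replicate 5, against 12.9 to 17.9 TPM in the other control mice. Sox9 was highest of its group in control replicate 5 (27.0 TPM) and PBMC-hCG replicate 4 (28.85 TPM). In IF replicate 5 Sox9 was lowest (29.25 TPM).

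**Figure D5:**
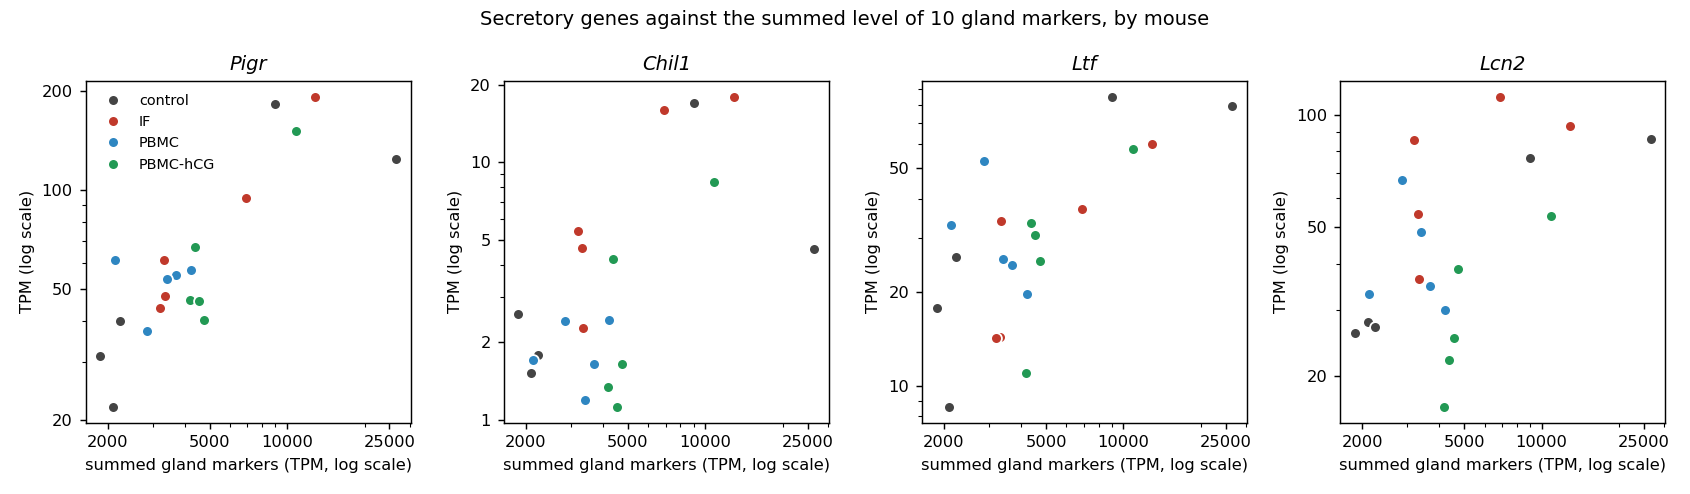
Pigr, Chil1, Ltf and Lcn2 in TPM against the summed TPM of 10 gland markers, both on log axes, with a point for each mouse coloured by group. The 5 mice with a sum of 6900 TPM or more come from control, IF and PBMC-hCG and hold all Pigr values above 67.0 TPM.

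Within the 15 libraries below 5000 TPM of gland markers, a limit set after the values were seen, the same pairs had an r of 0.305 (Pigr and Chil1), 0.160 (Ltf and Pigr), 0.220 (Lcn2 and Chil1) and 0.184 (Ltf and Lcn2), and Lcn2 and Pigr went from 0.654 to -0.486. The libraries were separated by a sum that follows these genes, which by itself narrows their range, so nothing is read from the lower values. S100a8 and S100a9 had an r of 0.747 in the 15 libraries, and 4 pairs were below -0.5, S100a9 and Chil1 (-0.863), Ltf and Pglyrp1 (-0.758), S100a8 and Chil1 (-0.630) and Pglyrp1 and Lyz2 (-0.621). In a fit of the 15 alone, with 3 control, 3 IF, 5 PBMC and 4 PBMC-hCG mice, Lcn2 kept its call between PBMC-hCG and IF, at -1.17 (adjusted p = 0.0459), and was called between IF and control, at 1.03 (adjusted p = 0.0497). S100a8 and S100a9 kept their calls between PBMC and control, at 2.14 and 2.21 (adjusted p = 0.000327 and 0.000216), and S100a9 between PBMC-hCG and control, at 1.08 (adjusted p = 0.0234), where S100a8 was now called too, at 1.10 (adjusted p = 0.0239). S100a9 between IF and control (0.73, adjusted p = 0.186), Slpi between IF and control (-0.69, adjusted p = 0.0827) and Slpi between PBMC-hCG and IF (0.73, adjusted p = 0.0657) no longer passed. The sum that separated the libraries also follows Lcn2, and it removed mice from control, IF and PBMC-hCG but none from PBMC. These calls, kept, gained or lost, are therefore not independent of that choice and are given as a description.

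In the same 15 libraries Pigr was higher than in control mice in all 3 treated groups, at 0.74 in IF (adjusted p = 0.0391), 0.79 in PBMC (adjusted p = 0.0127) and 0.70 in PBMC-hCG mice (adjusted p = 0.0236), where the fit of all 20 gave 0.38, -0.14 and 0.10. Because Pigr follows the sum by which the libraries were separated, these values are not independent of that choice. The part of gland RNA in the levels of the 10 genes was not tested further.

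The genes whose log2 level was most like that of each of the 10 over the 20 mice, among genes with a mean of at least 1 TPM, were mostly different from gene to gene, and only Cfi and Guca2b were listed for more than 1. For Pigr they were Cfi (r = 0.965), the complement factor I gene, Guca2b (0.939), which encodes uroguanylin, and Mien1 (0.929). Cfi led for Ltf as well (0.842), followed by Trf (0.833), the transferrin gene and a relative of Ltf, and Fxyd3 (0.824). Guca2b was again among those of Chil1 (0.882), after Prss12 (0.918) and before Atp6v0d2 (0.862). Lcn2 was most like Trpv4 (0.939), Tmem125 (0.925) and Wnt7b (0.907), a Wnt ligand gene. Wfdc2 was most like Hpgds (0.926), Serpina1e (0.913) and Tmed6 (0.891).

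S100a9 was most like Tes (0.884), Kank4 (0.869) and Ecscr (0.864), and S100a8 like Atp5l2-ps (0.782), Plekhf1 (0.780) and Col8a2 (0.745), so no gene was common to both lists. Centred on group means, r of S100a9 with Tes was 0.695. Pglyrp1 was most like Cyp4f18 (0.854), Gpsm3 (0.835) and Tbc1d10c (0.830), and centred on group means its r with the summed neutrophil markers, most of which is Retnlg, was 0.744. Lyz2 was most like Gm10499 (0.818), Ms4a7 (0.810), a macrophage gene, and Ftl1 (0.809), and centred on group means its r was 0.875 with Ms4a7 and -0.024 with the summed macrophage markers. Slpi had the weakest partners of the 10, Gm6863 (0.776), Fbxo2 (0.737) and AI463170 (0.720).

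Relatives of the 10 genes were called between treated groups and control, and none between the treated groups. Of all tested genes, limma called 21.9% between IF and control, 19.5% between PBMC and control and 31.8% between PBMC-hCG and control. Between treated groups it called 13.6% (PBMC-hCG and IF), 0% (PBMC and IF) and 0.0107% (PBMC-hCG and PBMC). Of 54 other antimicrobial and related family genes, 53 were in the table, 22 were above 0 in all libraries and 10 were at 0 in every library. In IF against control S100a16 and S100a13 rose by 0.56 and 0.31 on the log2 scale (adjusted p = 0.000915 and 0.000169), and the WAP gene Wfdc1 fell by 1.22 (adjusted p = 0.000526) and S100a1 by 0.19 (adjusted p = 0.00360). The median over the 22 genes was 0.03, beside 0.02 over all genes. The same 4 genes were called in the same directions between PBMC and control. Between PBMC-hCG and control 2 of the 22 rose and 6 fell, S100a16 and S100a13 again rising and S100a1, Wfdc1, S100a6, S100a10, Wfdc3 and Defb1 falling, with Defb1, a beta-defensin gene, at -1.48 (adjusted p = 0.0304) and S100a10 at -0.56 (adjusted p = 0.00503). In PBMC-hCG against IF none of the 22 was called by limma, and 5 had a raw p-value under 0.05, as did 35% of all tested genes.

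Of 27 tested genes that induce such proteins or carry the signal (interleukin-17, interleukin-1, tumor necrosis factor, NF-kB and C/EBP pathways), 8 rose and 1 fell in IF against control, with a median of 0.29. The share called among all tested genes was 21.9% there and 13.6% in PBMC-hCG against IF. The list holds Stat3 and Il17ra, and the study itself reported Stat3 and genes of interleukin-17 signaling as ameliorated in PBMC-hCG mice. The counts are therefore not independent of the study's own results. Cebpb, a C/EBP factor, rose from 30.9 ± 13.4 to 113 ± 40.2 TPM (SD, n = 5; log2 difference 1.89, adjusted p = 0.000380), and Il17ra, a chain of the interleukin-17 receptor, from 16.6 ± 1.14 to 45.4 ± 10.1 TPM (1.42, adjusted p = 2.44e-06). Stat3 rose by 0.62 (adjusted p = 0.00155) and Il17rc, another receptor chain, fell by 0.42 (adjusted p = 0.00217). In PBMC-hCG against IF 6 of the 27 fell and none rose, among them Cebpb by 1.55 (adjusted p = 0.0258), Cebpd by 0.85 (adjusted p = 0.0309) and Il17ra by 0.78 (adjusted p = 0.0258). Lcn2 was called in 1 of these comparisons, lower in PBMC-hCG than in IF, and the 2 sets of genes were not tested against each other.

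Of 28 tested genes that estrogen is known to raise in the uterus, 10 rose and 4 fell in IF against control, with a median log2 difference of 0.63. In this comparison 21.9% of all tested genes were called. The list holds Inhbb, Ramp3, Wnt4 and Vegfa, which the study itself reported as estrogen-activated genes rescued in PBMC-treated mice. All of these were among the rises here and among the falls in PBMC-hCG against IF. The counts are therefore not independent of the study's own results. Inhbb, an inhibin and activin subunit gene, rose by 5.24 (adjusted p = 8.85e-07), Ramp3 by 3.20 (adjusted p = 2.08e-05) and Padi1 by 2.60 (adjusted p = 3.15e-05). Igf1 fell by 1.89 (adjusted p = 2.33e-07), Myc by 1.04 (adjusted p = 5.14e-07) and Ccnd1 by 0.97 (adjusted p = 0.0221). In PBMC-hCG against IF, where 13.6% of all tested genes were called, 1 rose and 7 fell, with a median of -0.43. Between PBMC and IF none was called by limma, with 7 at a raw p-value under 0.05, beside 6.79% of all tested genes. Ltf, of the same kind by its known regulation, differed by -0.16 between IF and control (adjusted p = 0.883) and by 0.02 between PBMC-hCG and IF (adjusted p = 0.986).

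Of 23 tested genes that progesterone raises, 2 rose and 8 fell in IF against control, with a median of -0.32. The share called among all tested genes was 21.9% there. The rises were Cyp26a1, at 1.15 (adjusted p = 7.26e-06), and Sgk1, at 0.79 (adjusted p = 0.0380). Ihh, Gata2 and Hand2, which the study names as progesterone receptor targets, were not called, at 0.53, 0.12 and -0.26 (adjusted p = 0.569, 0.361 and 0.252). Il13ra2, also reported as a receptor for Chil1 protein, fell from 42.2 ± 9.99 to 2.22 ± 0.561 TPM (SD, n = 5; log2 difference -4.20, adjusted p = 2.84e-09). It stayed low in PBMC and PBMC-hCG mice, at 2.43 ± 0.927 and 3.30 ± 0.913 TPM. Among 18 tested receptors, cargo and protease targets of the 10 proteins, 3 rose and 3 fell in IF against control, the falls being Il13ra2, Jchain and Igha and the rises Ptgdr2 (1.33, adjusted p = 0.000106), Tlr4 (0.52, adjusted p = 0.00366), which responds to calprotectin, and Lrp1 (0.43, adjusted p = 0.00573), which takes up lactoferrin. In PBMC-hCG against IF none of the 18 was called by limma, and 4 had a raw p-value under 0.05. Among all tested genes 13.6% were called there and 35% had such a raw p-value.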

How the data were processed

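RNA of 20 mouse uteri was measured by RNA-seq. Per the labels and the study's methods, polyA RNA was made into stranded libraries, reads were trimmed with Trimmomatic, mapped to mm10 with HISAT2 and assembled with StringTie, whose versions are not given in the sources used here. The TPM values deposited by the authors were used as they stand. Condition and replicate number came from the labels. TPM keeps no depth, and the study's count test could not be applied. Instead, log2(TPM + 0.1) of the 18706 genes above 0 in all 20 libraries went into 1 limma model of all 4 groups (version 3.58.1, R 4.3.3) that lets the variance follow the mean level, with Benjamini-Hochberg adjustment in each comparison. The pseudocount draws fold changes of low genes toward 0.

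The 10 genes and the gene lists were chosen with earlier results of these data known. Of each other list, at most the 3 largest called rises and 3 largest called falls of a comparison were named where it was described, and for each of the 10 genes the 3 genes of at least 1 TPM most like it. The script was tested on simulated data. Alternatives were pseudocounts of 0.01 and 1, a filter at a mean of 1 TPM, no filter, median scaling, quantile normalization, 2 groups in the fit, no trend, array weights, a replicate block and each mouse left out. The fit of 15 libraries was added after the data were seen. Correlations were computed with numpy 2.4.6 and scipy 1.17.1, and sequences were matched by gene ID in RefSeq tables for 10 of 10 genes. Nothing says that mice of 1 group came from separate litters or days.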

Additional observations from a re-analysis of the deposited data

Results flagged for a closer look

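The 10 genes gave 40 sets of 5 mice (gene by group), and in 8 of them 1 mouse lay far from the others, its distance to the nearest being more than 0.71 of the whole range of the set. For normally distributed values chance marks about 1 set in 20 in this way. The distances were taken in TPM rather than on the log2 scale, so that rate may not hold here. Sets that share a library are not independent. Control replicate 2 gave 2 of the 8, Wfdc2 at 1349 TPM, where the next control mouse had 430 TPM, and Lyz2 at 680.0 TPM, where the next had 508 TPM. It is the library with the most gland marker and the least stroma marker RNA. Control replicate 5 was high for Chil1, at 16.9 TPM with the next at 4.59 TPM. IF replicate 3 was high for Wfdc2, at 576 TPM with the next at 382 TPM, and PBMC-hCG replicate 4 for Pigr, at 151 TPM with the next at 67.0 TPM. These 4 libraries are among the 5 with the highest gland marker sums.

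The other 3 were not among those 5 libraries. S100a9 in PBMC-hCG replicate 2 was low, at 2.67 TPM with the next at 5.83 TPM. Slpi in PBMC replicate 5 was high, at 14.7 TPM with the next at 10.4 TPM, and Lyz2 in PBMC replicate 3 was high, at 600.4 TPM with the next at 550.3 TPM.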

How the results depend on the processing

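Depth is unknown, 1 library was made per mouse, and with 5 mice a group the intervals of Ltf, Pigr and Chil1 still allow differences of more than 2-fold. All 60 differences (10 genes in 6 comparisons) were recomputed in 11 other settings and with each mouse left out. Under at least 1 of these, 23 of the 60 changed sign, and none of the 23 was called with all 20 libraries, where the largest had a size of 0.52. The cause of these changes was not tested.

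The number of the 10 genes called between IF and control, 2 in the fit as reported, was 1 with no filter on low genes and 1 with 2 groups in the fit, where S100a9 was lost (adjusted p = 0.0685 and 0.142), 3 with array weights, where Lcn2 was added, and 1 to 2 with a mouse left out. Between PBMC-hCG and IF it was 2, but 1 with no filter, where Lcn2 was lost (adjusted p = 0.0692), 1 in the 15 libraries below 5000 TPM of gland markers, and 0 to 2 with a mouse left out. The 8 mice without which Lcn2 was lost and the 7 without which Slpi was lost are named with those genes, and with IF replicate 5 or PBMC-hCG replicate 3 left out no gene of the table was called. Between PBMC-hCG and PBMC it was 0, but 2 with array weights (S100a8, adjusted p = 0.0471, and S100a9, 0.0343). Between PBMC-hCG and control it was 1, but 3 with array weights (S100a8 and Pglyrp1 added) and 3 in the 15 libraries (S100a8 and Pigr added), and 1 to 2 with a mouse left out. Between PBMC and control it was 2, but 3 with array weights (Pglyrp1 added, 0.35, adjusted p = 0.0363) and 3 in the 15 libraries (Pigr added). No mouse left out changed that count or the 0 between PBMC and IF. Array weights also raised the calls over all 18706 genes. They went from 4104 to 6248 between IF and control and from 2 to 1461 between PBMC-hCG and PBMC. Against control they went from 3653 to 6814 in PBMC and from 5941 to 9554 in PBMC-hCG mice. In the 15 libraries these last 2 counts were 4718 and 6347. The 15 libraries were chosen after the data were seen, by a sum that Pigr and Lcn2 follow. Calls and differences from them are therefore not independent of that choice.

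Among the log2 differences given above, Ltf between IF and control turned to 0.065 with array weights and 0.267 in the 15 libraries, and lay between -0.618 and 0.206 with a mouse left out. Ltf between PBMC-hCG and IF turned to -0.041 with median scaling and lay between -0.244 and 0.35 with a mouse left out. Pigr between PBMC and control turned to 0.574 with array weights and 0.788 in the 15 libraries (between -0.483 and 0.279 with a mouse left out), and between PBMC-hCG and control it lay between -0.25 and 0.512. Slpi between PBMC-hCG and control turned to -0.0077 with median scaling and -0.0088 with quantile normalization (between -0.087 and 0.144), and Wfdc2 between IF and control lay between -0.474 and 0.027.

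Mice of different groups with the same replicate number showed no general tendency to deviate together. The median correlation was -0.0097 over 30 such pairs and 0.00883 over 120 pairs with other numbers, with highest values of 0.457 and 0.567. Whether mice of some numbers share a litter or a day was not tested. With the replicate number as a block the counts of called genes were 2, 0, 2, 0, 2 and 1 in the order of the comparisons IF to control, PBMC to IF, PBMC-hCG to IF, PBMC-hCG to PBMC, PBMC to control and PBMC-hCG to control, as without the block.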
